A study of Mus musculus with 10 samples.

Results

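The genes described here are those of the surface proteins that define the sorted cells and mark them as T cells: Cd44 and Cd24a, whose proteins were used in the sort, and Cd3e, Cd3g, Cd247, Cd4, Cd8a, Thy1, Cd2 and Cd5. These are 10 of the 18193 genes with a probe set of their own. Every probe set that the platform annotation gives to them was taken, which came to 23 of the 45037 on the array, and each was treated apart. RNA was measured on Affymetrix arrays in invariant natural killer T (iNKT) cells from the thymus of 6-week-old C57BL/6 mice. The cells had been sorted by flow cytometry as binding a tetramer and lacking both CD24 and NK1.1, and then divided by CD44. The 4 groups were CD44-high Id3KO cells (stage 2, 3 arrays), CD44-high WT cells (stage 2, 3 arrays), CD44-low Id3KO cells (stage 1, 2 arrays) and CD44-low WT cells (stage 1, 2 arrays). The labels give the genotypes as Id3KO and WT, with no allele, and call the replicates biological without saying how many animals went into each. P-values therefore measure the spread between these arrays.

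An iNKT cell is a T cell whose semi-invariant receptor recognises lipids presented by CD1d. Its receptor chains are carried to the surface with the CD3 chains and the zeta chain, which hold the signalling motifs, while CD4 and CD8 are coreceptors, CD2 and CD5 tune signalling after receptor engagement, and Thy-1 and CD24 are small glycoproteins held in the membrane by a lipid anchor. CD44 binds hyaluronan and appears on iNKT cells as they mature in the thymus, whereas CD24 marks their most immature precursors. Id3 is an inhibitor of the E proteins, transcription factors that bind DNA at E-box sequences.

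Values are RMA intensities on a linear scale or their log2, as stated, and array medians lay between 54.8 and 55.5. The Id3 probe set had intensities of 67.3, 69.8 and 54.2 in Id3KO stage 2 cells, against 1065, 831 and 818 in WT stage 2 cells. At stage 1 it had 65.4 and 63.4 in Id3KO cells, against 1289 and 1282 in WT cells. The genotype labels and the Id3 signal therefore matched on all 10 arrays, although the labels do not say whether the probe set lies inside the deleted part. Of 8 genes of double-positive thymocytes, which include Cd4, Cd8a and Cd24a, the other 5, Rag1, Rag2, Ptcra, Dntt and Cd8b1, stayed below the table median on all arrays, and the list's summed intensity ran from 528 to 583 in Id3KO stage 2 cells, from 574 to 607 in WT stage 2 cells, from 564 to 587 in Id3KO stage 1 cells and from 591 to 639 in WT stage 1 cells. The sum takes the brightest probe set of each gene, and its largest part was Cd4, at a mean intensity of 224. It therefore does not measure the content of double-positive thymocytes. Markers of NK cells, B cells, myeloid cells, thymic epithelium and red cells reached a log2 intensity of at most 6.69, and none of their probe sets was called between any groups. Zbtb16, the transcription factor that drives the iNKT programme, was bright, at a log2 intensity of 9.79 to 10.24 on its 2 brightest probe sets.

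A probe set was tested where its log2 intensity exceeded the table median of 5.78 on at least 2 arrays, and 15 of the 23 passed. The 8 that did not were 1 of 4 for Cd44, 1 of 3 for Cd24a, 2 of 4 for Cd247, 1 of 2 for Cd4 and 3 of 5 for Cd8a. A call is an adjusted p under 0.05 in a limma fit of all 4 groups, adjusted by Benjamini and Hochberg over all 25061 probe sets tested. Comparisons are drawn within a probe set, since brightness also depends on its sequence.

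Cd44, the marker that separated the stages, followed the gate in both genotypes and was lower in Id3KO than in WT stage 2 cells by differences that were not called. On its brightest probe set (1423760_at) intensities were 577, 280.1 and 507 in Id3KO stage 2 cells, against 653, 797 and 858 in WT stage 2 cells. At stage 1 they were 130.3 and 255 in Id3KO cells, against 147 and 224 in WT cells. Every stage 2 array thus stood above every stage 1 array, the Id3KO stage 2 arrays were all below the WT stage 2 arrays, and the genotypes overlapped at stage 1. The stage 1 arrays were themselves above the table median, an intensity of 55.1. In a bulk sample, fewer cells carrying a transcript and less of it per cell cannot be told apart.

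**Figure D1:**
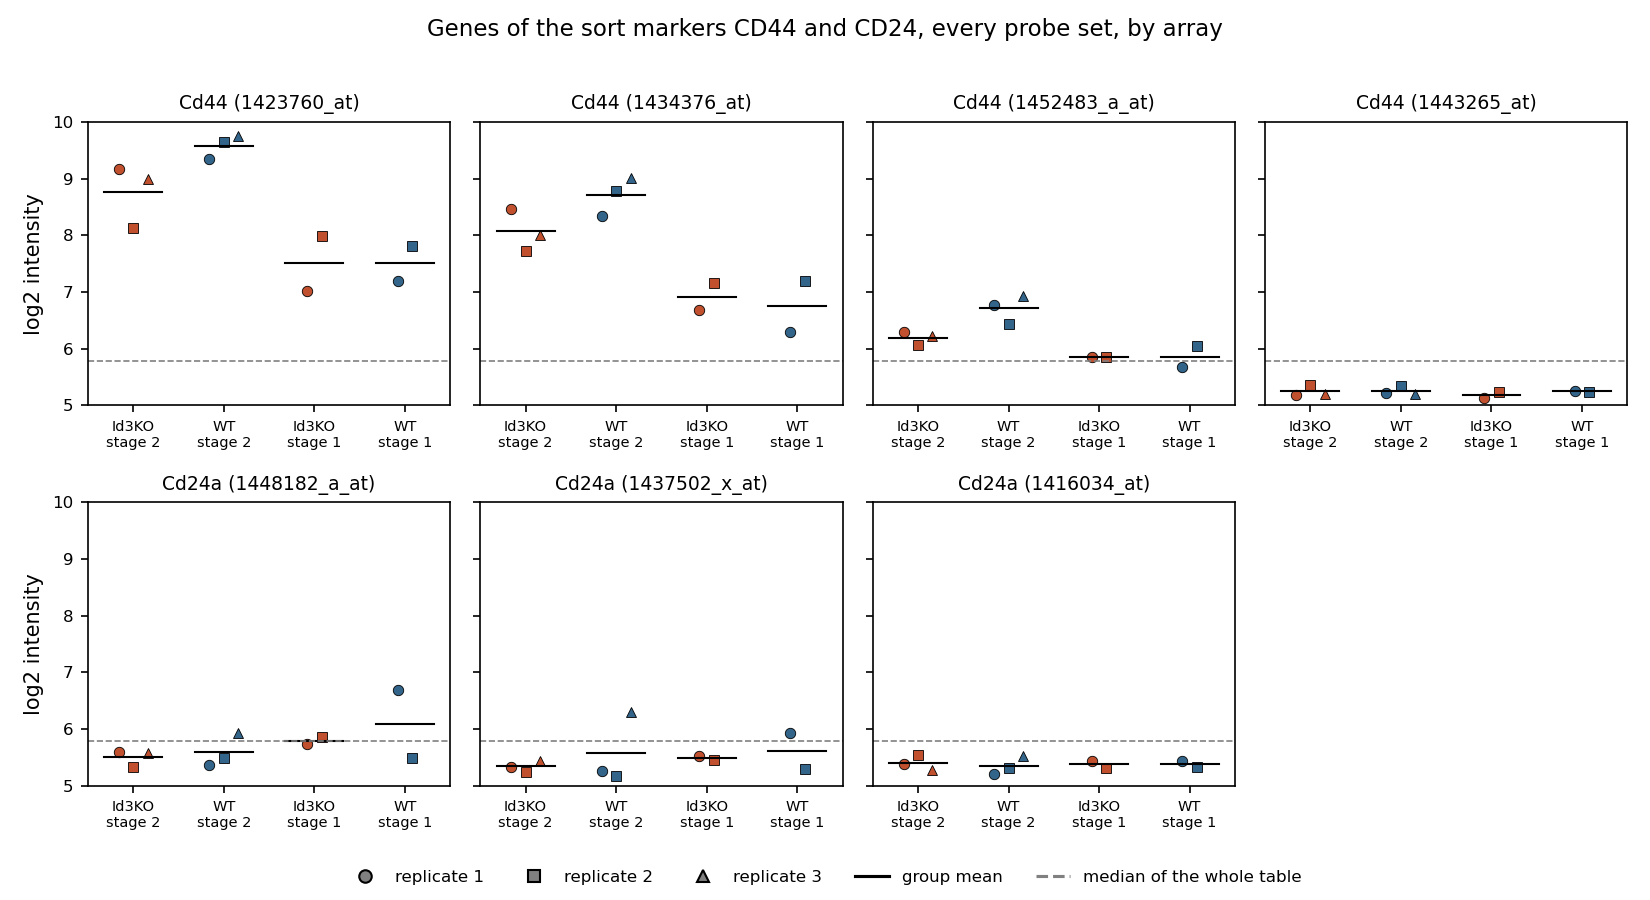
Log2 intensity of each Cd44 and Cd24a probe set on each array, by group, with the group mean as a bar and the table median as a dashed line. On the 3 tested Cd44 probe sets every stage 2 array is above every stage 1 array, while the Cd24a probe sets lie near the table median.

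The stage 2 minus stage 1 difference of 1423760_at was 1.25 ± 0.36 on the log2 scale in Id3KO cells (SE, 3 against 2 arrays, 2.38-fold, limma adjusted p = 1.000). In WT cells it was 2.07 ± 0.36 (4.21-fold, limma adjusted p = 0.134). Since the cells were sorted on CD44, the stage difference describes the sort at the level of RNA. By unadjusted p the 3 Cd44 probe sets ranked 156, 131 and 1268 of 25061 in Id3KO cells and 59, 36 and 76 in WT cells. Averaged over the genotypes they ranked 17, 11 and 45. The size of the difference in Id3KO cells moved with the stage 1 arrays, and was 0.77 without Id3KO stage 1 replicate 1 and 1.74 without replicate 2.

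The other 2 tested Cd44 probe sets also had every stage 2 array above every stage 1 array, at lower brightness. Probe set 1434376_at had intensities of 355, 212 and 257 in Id3KO stage 2 cells, against 323, 440.1 and 516 in WT stage 2 cells, and here the genotypes overlapped. Its stage 1 intensities were 102 and 143 in Id3KO cells, against 78.5 and 147 in WT cells. Probe set 1452483_a_at, which lay close to the table median, had log2 intensities of 6.29, 6.07 and 6.22 in Id3KO stage 2 cells, against 6.76, 6.44 and 6.93 in WT stage 2 cells, with no overlap. Its stage 1 log2 intensities were 5.85 and 5.85 in Id3KO cells, against 5.68 and 6.04 in WT cells. Across the 10 arrays the 3 probe sets correlated pairwise with Pearson's r of 0.98, 0.90 and 0.90, as a description of arrays that share the RNA extract.

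Within the CD44 gate, the Id3KO minus WT difference at stage 2 was -0.82 ± 0.33 on the log2 scale for 1423760_at (limma adjusted p = 0.241), -0.64 ± 0.29 for 1434376_at (adjusted p = 0.304) and -0.52 ± 0.14 for 1452483_a_at (adjusted p = 0.0822). Replicate 2 was the lowest of the Id3KO stage 2 arrays on all 3, and without it the first difference was -0.50. Without WT stage 2 replicate 2 the third was -0.65 and was called (limma adjusted p = 0.0446). At stage 1 the same differences were 0.01, 0.17 and -0.01, and the genotypes overlapped on all 3. The interaction of genotype and stage was -0.82, -0.81 and -0.51 on the 3 probe sets, and none was called (limma adjusted p between 0.706 and 0.783). The fourth probe set, 1443265_at, stayed between log2 5.13 and 5.35 on every array and was not tested.

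Cd24a, whose protein was absent from the sorted cells by design, lay at the table median or below it on most arrays. Probe set 1448182_a_at had log2 intensities of 5.59, 5.33 and 5.58 in Id3KO stage 2 cells, against 5.36, 5.49 and 5.93 in WT stage 2 cells. At stage 1 it had 5.73 and 5.86 in Id3KO cells, against 6.69 and 5.48 in WT cells. The single value well above the others was that of WT stage 1 replicate 1. With this array the Id3KO minus WT difference at stage 1 was -0.29 ± 0.34, and without it 0.31, so its sign rested on 1 array. On 1437502_x_at only WT stage 1 replicate 1, at log2 5.92, and WT stage 2 replicate 3, at 6.29, exceeded the table median. The third, 1416034_at, ran from log2 5.20 to 5.53 and was not tested, and neither tested Cd24a probe set was called in any comparison.

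In the receptor complex, Cd247, for the zeta chain, was lower in Id3KO cells when the stages were averaged, while the CD3 chains were not called. Cd247 (1426396_at) had intensities of 733, 705 and 865 in Id3KO stage 2 cells, against 1006, 955 and 1117 in WT stage 2 cells. At stage 1 it had 768 and 777 in Id3KO cells, against 1151 and 1284 in WT cells. All 5 Id3KO arrays were below all 5 WT arrays. The Id3KO minus WT difference was -0.42 ± 0.10 on the log2 scale at stage 2 (1.34-fold lower, limma adjusted p = 0.0540) and -0.65 ± 0.12 at stage 1 (1.57-fold lower, adjusted p = 0.0578), and neither was called. Averaged over the stages the difference was -0.54 ± 0.08, and Cd247 fell (1.45-fold, limma adjusted p = 0.00569, 5 against 5 arrays).

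The Cd247 call in the averaged comparison held under each of the 19 alternative settings, with adjusted p up to 0.0332. At the single stages the adjusted p of Cd247 1426396_at lay on either side of the threshold, from 0.0283 to 0.180 at stage 2 and from 0.0350 to 0.255 at stage 1. A dimmer Cd247 probe set, 1420716_at, had intensities of 89.4, 79.0 and 98.6 in Id3KO stage 2 cells, against 94.1, 90.3 and 108 in WT stage 2 cells, which overlapped. Its stage 1 intensities were 81.1 and 88.0 in Id3KO cells, against 119 and 112 in WT cells, which did not. Its averaged difference of -0.29 ± 0.08 was not called (limma adjusted p = 0.0889), and it correlated with the brighter probe set at r = 0.89 over the 10 arrays. The remaining Cd247 probe sets, 1426079_at and 1452539_a_at, lay between log2 5.40 and 5.82 and were not tested.

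Cd3e and Cd3g encode the epsilon and gamma chains, and their genes lie on either side of Cd3d, for the delta chain, on chromosome 9. Cd3g (1419178_at) had log2 intensities of 11.54, 11.44 and 11.54 in Id3KO stage 2 cells, against 11.46, 11.60 and 11.64 in WT stage 2 cells. Its stage 1 values were 11.53 and 11.54 in Id3KO cells, against 11.69 and 11.56 in WT cells. The difference was -0.06 at stage 2, with a 95% interval of -0.23 to 0.11, and -0.09 at stage 1, with an interval of -0.30 to 0.12. Cd3e (1422105_at) had log2 intensities of 8.97, 8.85 and 9.12 in Id3KO stage 2 cells, against 9.21, 9.10 and 9.25 in WT stage 2 cells, and the groups overlapped. Its stage 1 values were 8.92 and 9.08 in Id3KO cells, against 9.11 and 9.06 in WT cells. The Cd3e difference was -0.20 at stage 2 (95% interval -0.41 to 0.0012) and -0.08 at stage 1 (95% interval -0.33 to 0.17). Cd3d stayed between log2 11.54 and 11.83 on all arrays, and none of the CD3 probe sets was called.

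The promoters of the chain that fell and of those that were not called are shown side by side, since E proteins bind the E-box core CANNTG. RefSeq's table for GRCm38.p6 held 6 of the 10 genes, without Thy1, Cd2, Cd4 and Cd24a. Each sequence is the 250 bases before the annotated start, on the gene's strand, with CANNTG in capitals. A CANNTG read on one strand is a CANNTG on the other.
Cd247, chr1:165788431-165788680, plus strand: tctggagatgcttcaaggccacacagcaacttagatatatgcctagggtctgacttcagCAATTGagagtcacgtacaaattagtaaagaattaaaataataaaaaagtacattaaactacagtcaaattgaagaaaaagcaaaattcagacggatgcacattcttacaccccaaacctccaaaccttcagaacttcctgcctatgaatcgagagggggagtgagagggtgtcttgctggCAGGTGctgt
Cd3e, chr9:45009612-45009861, minus strand: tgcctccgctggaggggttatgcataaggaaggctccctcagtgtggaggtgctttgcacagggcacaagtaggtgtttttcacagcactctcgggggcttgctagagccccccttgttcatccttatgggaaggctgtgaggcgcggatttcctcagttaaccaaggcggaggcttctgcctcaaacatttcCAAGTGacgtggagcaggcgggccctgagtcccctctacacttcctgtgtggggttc
Cd3g, chr9:44980432-44980681, minus strand: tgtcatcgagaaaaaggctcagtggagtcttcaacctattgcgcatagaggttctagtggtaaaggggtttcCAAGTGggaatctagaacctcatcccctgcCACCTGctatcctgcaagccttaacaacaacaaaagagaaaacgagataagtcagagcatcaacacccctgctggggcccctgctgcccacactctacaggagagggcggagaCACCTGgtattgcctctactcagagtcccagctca

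Cd247 held 2 of these words, CAATTG and CAGGTG, whose first bases lie 191 and 10 bases before the start. Cd3e held 1, CAAGTG, and Cd3g held 3, of which both CACCTG words are the reverse complement of CAGGTG. Cd8a and Cd5 held 2 each and Cd44 held none. Among 32851 promoters of the same length, 66.2% held at least 1 CANNTG, 31.8% at least 2 and 12.2% at least 3, and 17.2% held CAGGTG or CACCTG. A match is a run of letters, and binding was not measured here. Whether these words bear on the Cd247 difference was not tested.

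Of the coreceptor genes, Cd4 was above the table median on every array and Cd8a lay close to it. Cd4 (1419696_at) had log2 intensities of 7.69, 7.51 and 7.81 in Id3KO stage 2 cells, against 7.74, 7.83 and 7.96 in WT stage 2 cells, with an overlap. Its stage 1 values were 7.79 and 7.78 in Id3KO cells, against 7.92 and 7.95 in WT cells, with none. The differences, -0.17 ± 0.09 at stage 2 and -0.15 ± 0.11 at stage 1, were not called (limma adjusted p = 0.420 and 0.734). A second Cd4 probe set, 1427779_a_at, never exceeded log2 5.74.

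Of 5 Cd8a probe sets, 3 stayed under the table median on all arrays, as did Cd8b1, the gene beside it for the other CD8 chain. The brightest, 1440164_x_at, ran from log2 6.21 to 6.28 in Id3KO stage 2 cells, from 6.16 to 6.45 in WT stage 2 cells, from 6.13 to 6.32 in Id3KO stage 1 cells and from 6.11 to 6.20 in WT stage 1 cells. Probe set 1425335_at lay within log2 5.74 to 5.91 on all 10 arrays. No Cd8a probe set was called in any comparison, and the brightest differed by -0.04 at stage 2 (95% interval -0.26 to 0.17) and by 0.06 at stage 1 (95% interval -0.20 to 0.33).

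Thy1, for the pan-T-cell glycoprotein Thy-1, and Cd2, for an adhesion and costimulatory receptor, differed most between the genotypes and in opposite directions. Thy1 (1423135_at) had intensities of 1234, 835 and 1437 in Id3KO stage 2 cells, against 3019, 2852 and 3061 in WT stage 2 cells. Stage 1 cells showed 1215 and 1415 in Id3KO cells, against 2625 and 2711 in WT cells. The highest Id3KO array was thus below the lowest WT array at either stage, while within a genotype the stages lay close together.

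Thy1 averaged 1168 ± 306 in Id3KO stage 2 cells and 2978 ± 111 in WT stage 2 cells (SD, n = 3 each). It fell by 1.39 on the log2 scale at stage 2 (SE 0.17, 2.61-fold, limma adjusted p = 0.00385). At stage 1 the averages were 1315 ± 141 in Id3KO cells and 2668 ± 61.0 in WT cells (SD, n = 2 each), a difference of -1.02 ± 0.21 that was not called (limma adjusted p = 0.0842). Averaged over the stages Thy1 fell 2.30-fold (limma adjusted p = 0.00170). The stage 2 call held in all 20 alternative settings, with adjusted p up to 0.0218, and at stage 1 Thy1 was called in 3 of them, among them without Id3KO stage 2 replicate 2 (0.0119) and without Id3KO stage 2 replicate 3 (0.0447).

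**Figure D2:**
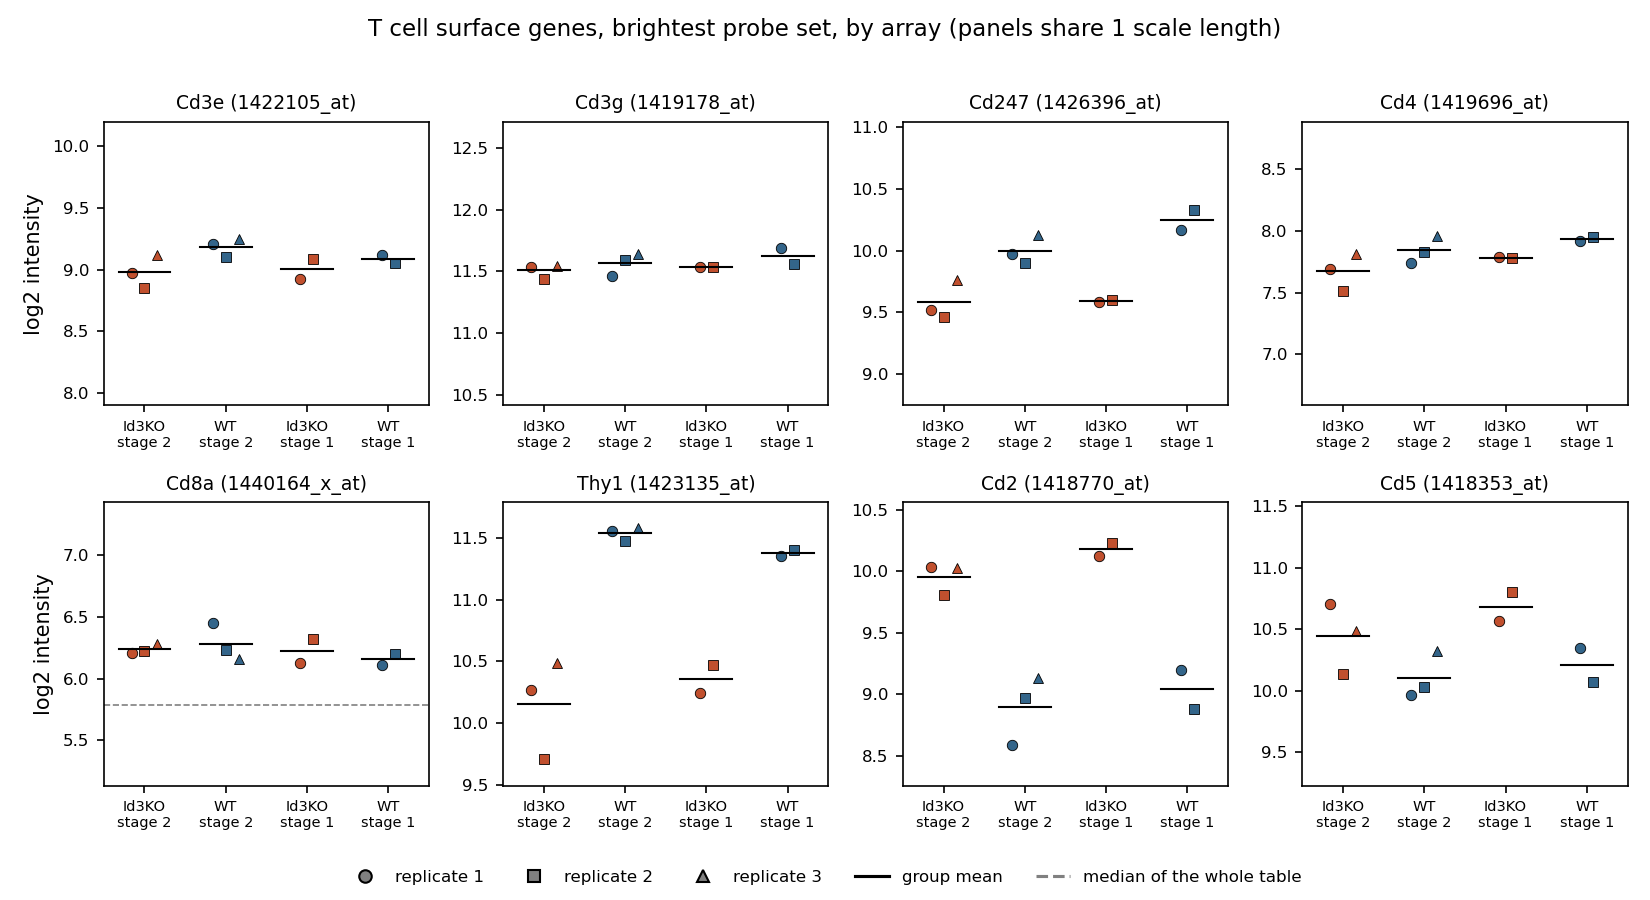
Log2 intensity of the brightest probe set of each other gene on each array, by group, with the group mean as a bar. Thy1 and Cd247 stand lower and Cd2 higher on every Id3KO array than on any WT array, and Cd3g and Cd3e differ by at most 0.20 between the genotypes.

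Cd2 (1418770_at) had intensities of 1046, 893 and 1044 in Id3KO stage 2 cells, against 385, 502 and 559.9 in WT stage 2 cells. Stage 1 intensities were 1117 and 1199 in Id3KO cells, against 587 and 471 in WT cells. Every Id3KO array was above every WT array. The averages were 994 ± 87.7 in Id3KO and 482 ± 89.0 in WT stage 2 cells (SD, n = 3 each), and 1158 ± 57.9 in Id3KO and 529 ± 82.0 in WT stage 1 cells (SD, n = 2 each).

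Cd2 rose in Id3KO cells by 1.06 ± 0.15 on the log2 scale at stage 2 (2.08-fold, limma adjusted p = 0.00610) and by 1.14 ± 0.18 at stage 1 (2.20-fold, adjusted p = 0.0306). The stage 2 call of Cd2 held in all 20 alternative settings. The stage 1 call was lost in 8 of the 20, including without either Id3KO stage 1 array (limma adjusted p = 0.137 and 0.124), without either WT stage 1 array (0.111 and 0.169) and without WT stage 2 replicate 2 (0.0594), while the Cd2 difference stayed between 0.98 and 1.30. Cd48, the gene of the mouse ligand of CD2, differed by -0.59 at stage 2 (limma adjusted p = 0.0670) and by -0.28 at stage 1.

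Cd5, for a receptor that dampens antigen receptor signalling and tracks its strength, was higher in Id3KO cells by differences that were not called. Its intensities (1418353_at) were 1673, 1127 and 1430 in Id3KO stage 2 cells, against 997, 1048 and 1282 in WT stage 2 cells. At stage 1 they were 1512 and 1782 in Id3KO cells, against 1300.2 and 1074 in WT cells. The arrays overlapped at stage 2 and stood apart at stage 1. The differences were 0.34 ± 0.16 at stage 2 (limma adjusted p = 0.348), 0.47 ± 0.20 at stage 1 (adjusted p = 0.446) and 0.41 ± 0.13 averaged over the stages (adjusted p = 0.132).

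Across the 15 tested probe sets, 2 were called between the genotypes at stage 2, where 4.21% of all probe sets were called. They were Cd2 among the higher (1.82% of all) and Thy1 among the lower (2.39% of all). At stage 1 only Cd2 was called, where 0.802% of all were, 0.459% as higher. Averaged over the stages 3 were called, against a background of 4.97%, namely Cd2 among the higher (2.18%) and Thy1 and Cd247 among the lower (2.79%), and this comparison shares its arrays with the single stages. Probe sets of the same gene count apart among the 15, so the counts are not of separate genes. Id3KO and WT arrays stood wholly apart for 5 of 15 at stage 2, 1 above and 4 below, against 21.4% of all probe sets (10.9% above and 10.5% below). Those below were Cd44 1423760_at and 1452483_a_at, Cd247 1426396_at and Thy1, and Cd2 was above. At stage 1 the arrays stood apart for 8, 3 above and 5 below, against 41.5% (18.7% above and 22.8% below). There Cd3g, Cd4, Thy1 and both tested Cd247 probe sets were below, and Cd2, Cd5 and Cd8a 1425335_at were above. Over both stages together 3 of 15 stood apart, 1 above and 2 below, against 6.85% (3.1% above and 3.75% below).

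The median difference over the 15 was -0.17 at stage 2 and -0.08 at stage 1, against 0.0059 and -0.0075 over all probe sets tested. That median also counts probe sets of the same gene apart. Between stages 0 of 15 were called in Id3KO cells and 0 in WT cells, where limma called 0% and 0.016% of all probe sets (0.012% as higher in WT), and 2 and 3 had an unadjusted p under 0.05, against 4.51% and 8.06% of all. For the interaction 0 of 15 were called against 0%, with 1 at an unadjusted p under 0.05, against 7.07% of all. For stage averaged over genotype 0 were called against 0.00399%, with 3 at an unadjusted p under 0.05, all of Cd44, against 5.45% of all. Stage 2 arrays stood wholly apart from stage 1 arrays for 7 of 15 in Id3KO cells, 3 above and 4 below, against 18.4% of all (9.45% above and 8.91% below). In WT cells they did so for 7 of 15, 5 above and 2 below, against 26.2% (11.8% above and 14.4% below). With the genotypes joined, 3 of 15 stood apart, all of Cd44 and above, against 0.714% (0.351% above). The same 3 are among the 7 in each genotype. The stages were divided by CD44, so the Cd44 probe sets in all of these stage counts describe the sort.

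The probe sets that stood apart between the stages in Id3KO cells were the 3 of Cd44 above, and Cd2, both of Cd24a and Cd8a 1425335_at below. In WT cells they were the 3 of Cd44, Thy1 and Cd8a 1425335_at above and both of Cd247 below. The stage differences of Thy1 were -0.20 in Id3KO cells and 0.16 in WT cells, those of Cd2 -0.22 and -0.14, and those of Cd247 1426396_at -0.01 and -0.25, all smaller in size than their genotype differences. This did not hold for Cd247 1420716_at, with stage differences of 0.07 in Id3KO cells and -0.25 in WT cells. Its genotype differences were -0.13 at stage 2 and -0.45 at stage 1.

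**Figure D3:**
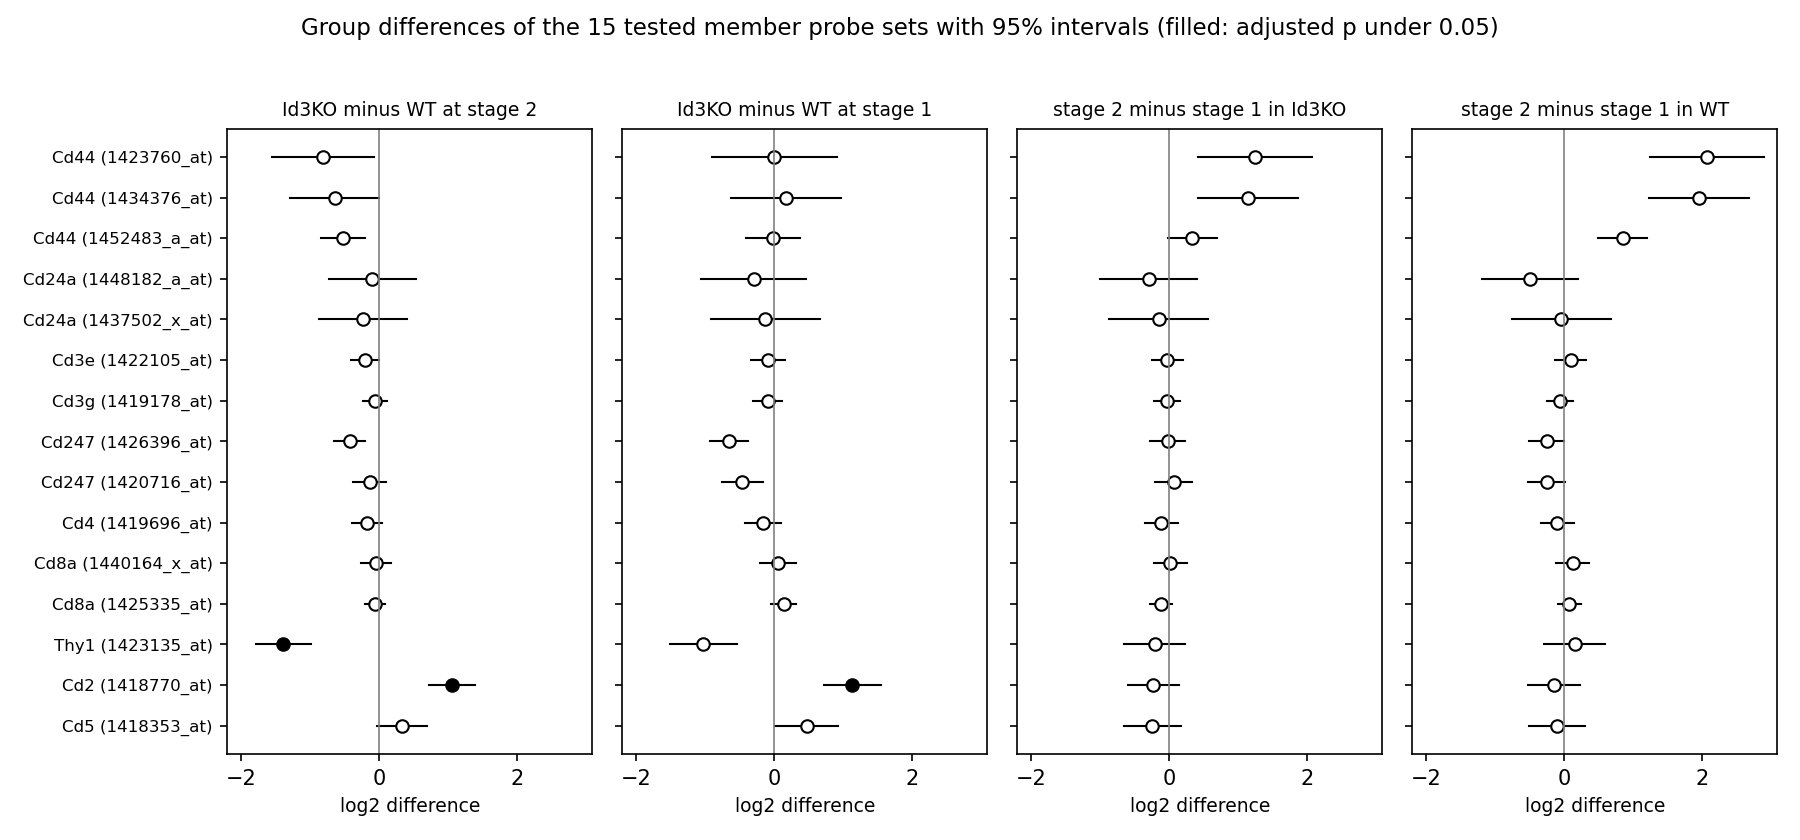
Log2 difference with its 95% interval for each of the 15 tested probe sets, in panels for the genotype differences and the stage differences, with called ones filled. Thy1 and Cd2 lie farthest from 0 between the genotypes and the 3 Cd44 probe sets farthest from 0 between the stages.

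Single arrays stood low or high for many of these genes together. Among the 3 Id3KO stage 2 arrays replicate 2 was the lowest for 13 of the 15 probe sets, against 34.1% of all probe sets tested. Among the 3 WT stage 2 arrays replicate 3 was the highest for 13 of 15, against 31.2% of all. Probe sets of the same gene count apart here too. A low Id3KO array and a high WT array both lower the Id3KO minus WT difference. Without Id3KO stage 2 replicate 2 the stage 2 difference was -0.50 for Cd44 1423760_at, -0.14 for Cd3e and -0.09 for Cd4. The uncalled difference of Cd5, which was higher in Id3KO cells, was then 0.49. Beyond leaving each array out, their part in the uncalled stage 2 differences was not tested.

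The genes whose pattern over the 10 arrays was nearest to each called gene were found among 11941 genes by Pearson's r on log2 values. Lsp1, Sh3bgrl3 and Rps6ka3 were nearest to Thy1, at r of 0.98, 0.98 and 0.98. For Cd2 they were Prmt7, Plce1 and Cytip, at 0.96, 0.96 and 0.96. For Cd247 they were Phyh, Plekho2 and Ptprf, at 0.98, 0.97 and 0.97. These r are descriptions, since the 10 points fall into 4 groups and both genes of a pair are read on the same arrays.

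Other T cell surface genes were set beside them from a list of 33, of which 24 had a probe set of 1 gene and 22 were bright enough to test, on 35 probe sets. The list was chosen with earlier results of these data known, and probe sets of the same gene count apart. Its counts are therefore descriptions, not a test of T cell surface genes as a set. At stage 2, 5 of the 35 rose in Id3KO cells, 11 fell and 19 were not called, where 4.21% of all probe sets were called, with a median difference of -0.27 against 0.0059 over all. At stage 1, limma called 0 of the 35 against 0.802% of all probe sets, 14 had an unadjusted p under 0.05 against 10.5% of all, and the median was -0.09. Called higher at stage 2 were the costimulatory receptor gene Cd28 (0.70 and 0.59 on 2 probe sets), the activation marker Cd69 (0.56), the tetraspanin Cd81 (0.74) and Cd200, for the ligand of an inhibitory receptor (0.84). Called lower were 9 genes. The cytokine receptor genes among them were Il7r (-1.07) and Il2rb, for a chain shared by the receptors of interleukins 2 and 15 (-0.95). Of receptors shared by T and NK cells there were Cd7 (-1.68), Cd96 (-0.82) and Cd160 (-0.78 and -0.53). Cd1d1, for the molecule that presents lipids to iNKT cells (-0.78 and -0.78), the lipid-anchored Cd52 (-0.67) and Ly6e (-0.51) and the tetraspanin Cd37 (-0.45) made up the rest.

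The widest of these differences was in Cd7, of the immunoglobulin family, at log2 intensities of 6.67, 6.88 and 7.11 in Id3KO stage 2 cells, against 8.23, 8.77 and 8.69 in WT stage 2 cells (limma adjusted p = 0.000893). The groups did not overlap. Cd200 had 7.47, 7.73 and 7.40 in Id3KO stage 2 cells, against 6.58, 6.78 and 6.70 in WT stage 2 cells, again with no overlap (limma adjusted p = 0.00259). Il7r, for the receptor chain of the survival cytokine interleukin 7, had 10.57, 9.91 and 10.72 on 1448575_at in Id3KO stage 2 cells, against 11.13, 11.55 and 11.72 in WT stage 2 cells.

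Probe sets of one gene did not always share a call. Il7r 1448576_at differed by -1.12 with an adjusted p of 0.0697, Il2rb 1417546_at by -0.25, Ly6e 1439773_at by -0.47 and Cd37 1425736_at by -0.56, none of them called by limma, and 2 of the 4 Cd160 probe sets were not called. The counts also moved with single arrays, as did those over all probe sets. Leaving out 1 array gave 2 to 5 higher and 2 to 9 lower, with the fewest lower without WT stage 2 replicate 3 (2 higher, 2 lower), without WT stage 2 replicate 2 (2 and 3) and without WT stage 2 replicate 1 (4 and 5). The share of all probe sets called was 2.02%, 2.33% and 3.08% in these fits, against 4.21% with every array. Without any 1 stage 1 array, or Id3KO stage 2 replicate 1 or 2, the number lower was 6 or 7. There 2.62% to 3.55% of all probe sets were called. Without WT stage 1 replicate 1, WT stage 1 replicate 2 or Id3KO stage 2 replicate 1, the number higher was 3.

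**Figure D4:**
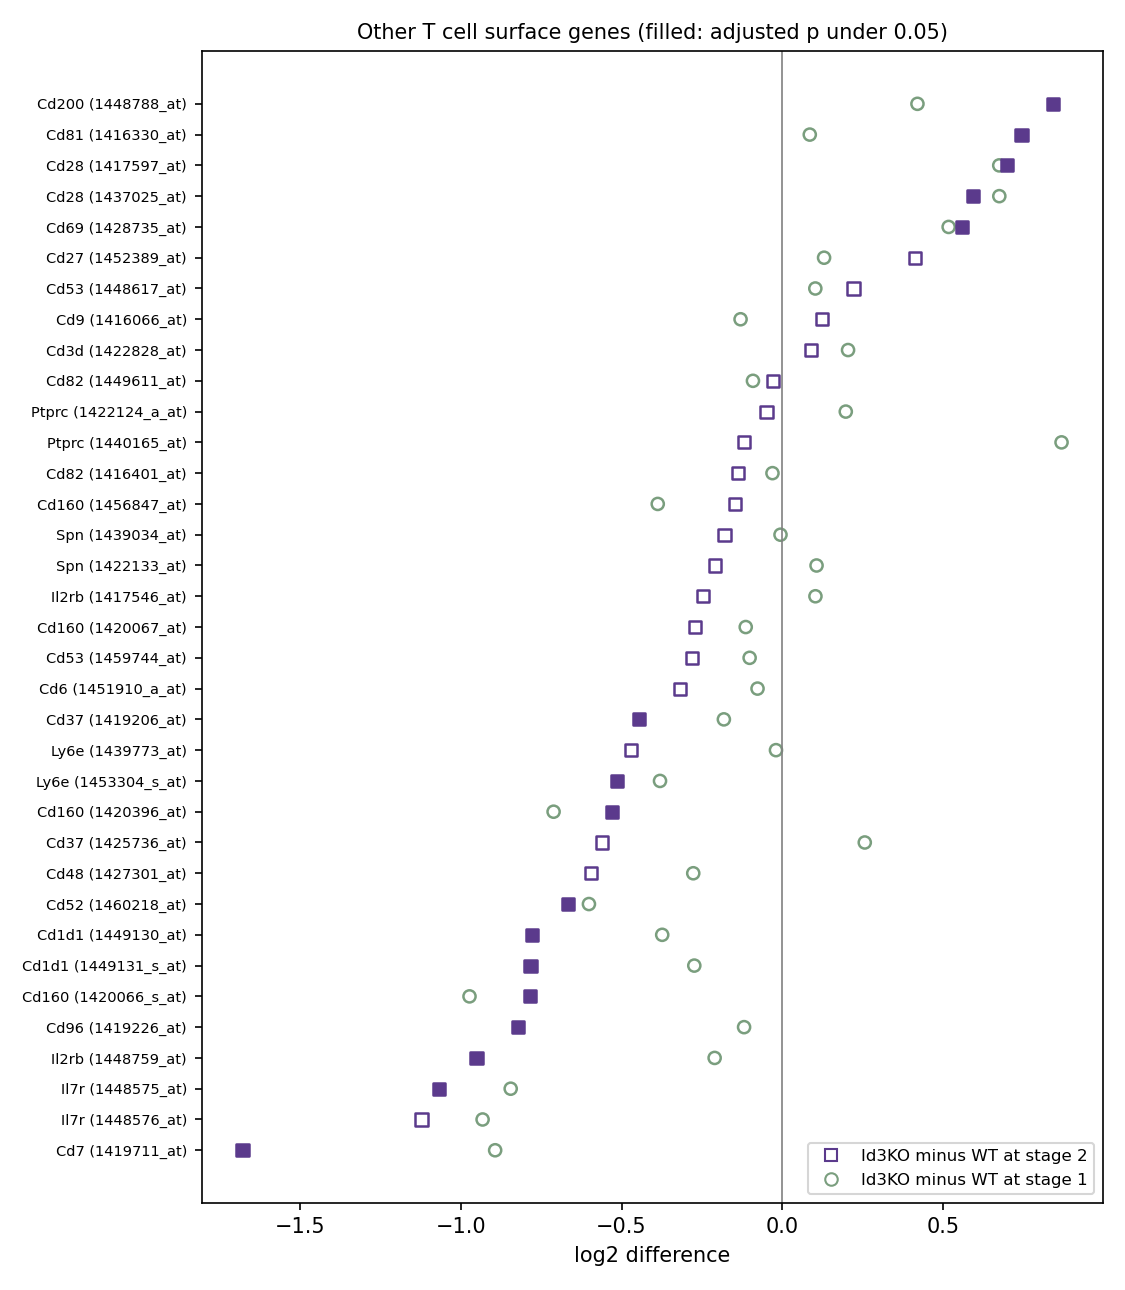
Log2 difference between Id3KO and WT cells of each tested probe set of the other T cell surface genes, at stage 2 (squares) and stage 1 (circles), with called ones filled. At stage 2, 11 probe sets from Cd7 to Cd37 are called lower and 5 of Cd28, Cd69, Cd81 and Cd200 higher.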

How the data were processed

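RNA of 10 samples was hybridised to Affymetrix arrays after a 2-cycle cDNA synthesis, per the labels' protocols. The authors deposited linear probe set intensities, from 29 to 15399, normalized by RMA per the submitters' processing notes, in a version not given. They were turned into log2 here, since the planned test needs that scale and had been written for log2 values. As a method RMA quantile-normalizes arrays together and compresses differences of dim probe sets. Arrays give no read depth, so their number limits the precision.

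Groups came from the labels. The 25061 probe sets (55.6%) above the table median on at least 2 arrays were fitted with limma 3.58.1 in R 4.3.3, with 1 mean per group, variances moderated with 2.80 prior on 6 residual degrees of freedom, and 7 two-sided contrasts: genotype at each stage, stage in each genotype, their interaction, and each factor averaged over the other. The fit was run on simulated data with independent noise on each probe set, without shifts shared by an array. That run checks the code and not the calls made here. Genes were named by the platform annotation. Named are all probe sets of the 10 genes, every called gene of the list of other surface genes, the 3 genes of nearest pattern, Id3 and marker genes. These genes, lists and tests were chosen with earlier results of these data known. Further genes, such as the T cell receptor constant regions, are not analysed here. Alternatives were other filters, normalizations, variance models, array weights, a replicate block, 1 probe set per gene, only the arrays compared, and leaving out each array. The surface list's counts and a block with crossed numbers were added after the data were seen.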

Additional observations from a re-analysis of the deposited data

Results flagged for a closer look

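Cd8a 1425335_at moved in opposite directions between the stages of the genotypes. In Id3KO cells its log2 intensities were 5.74, 5.83 and 5.81 at stage 2, against 5.91 and 5.90 at stage 1. In WT cells they were 5.89, 5.85 and 5.79 at stage 2, against 5.77 and 5.77 at stage 1. The stage 2 arrays were all below the stage 1 arrays in Id3KO cells (-0.11) and all above them in WT cells (0.08). The interaction was -0.19 ± 0.10 and was not called (limma adjusted p = 0.741), and all 10 arrays lay between 5.74 and 5.91, close to the table median of 5.78. Groups of 2 or 3 arrays are too small for a test of single arrays against their group.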

How the results depend on the processing

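With 2 or 3 arrays a group, calls near the threshold moved with the settings, and the share called over all probe sets moved with them. The number of the 15 probe sets called between Id3KO and WT cells at stage 1, which was 1, became 0 with no filter on dim probe sets, 0 with only the arrays compared, 0 with the replicate number as a block, 2 when that block swapped both Id3KO stage 1 arrays, 2 with an intensity trend and robust prior, 2 with 1 probe set per gene and 3 with array weights. Over all probe sets the share called, 0.802%, was 0.329%, 0.121%, 0.395%, 0.674%, 0.858%, 1.52% and 1.09% in these fits. Leaving out single arrays gave 0 to 3, where 0.0603% to 0.943% of all were called, with 0 without any 1 of the 4 stage 1 arrays or WT stage 2 replicate 2, 2 without Id3KO stage 2 replicate 2 and 3 without Id3KO stage 2 replicate 3. Between the stages in WT cells the number called was 0 and became 1 with array weights, Cd44 1434376_at (limma adjusted p = 0.0496), where 0.168% of all were called. At stage 2 the number called between genotypes was 2 and stayed between 2 and 3 in all 20 alternatives, and averaged over the stages it was 3 and stayed between 3 and 4 in all 19 run. For stage in Id3KO cells, stage averaged over genotype and the interaction it was 0 in every alternative run. No log2 difference that had been called changed sign. The labels do not say that replicate numbers pair arrays. Deviations of same-numbered arrays from their group means correlated between -0.31 and 0.13, and those of differently numbered arrays between -0.19 and 0.31. In a group of 2 arrays the deviations are mirror images, so values that involve such a group cannot decide on pairing. With the block the other T cell surface probe sets called at stage 2 numbered 4 higher and 7 lower in place of 5 and 11, with 3.11% of all called. They numbered 4 and 5 with no filter (2.03%) and 3 and 5 with only the arrays compared (2.63%).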
